A study of Homo sapiens with 45 samples.

Results

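The genes described here are 43 components of the transforming growth factor beta (TGF-beta), bone morphogenetic protein (BMP) and activin pathway. They were taken by name from a list of 19 ligands, 11 receptors, 8 SMAD proteins and 5 secreted antagonists, among 41578 genes in the tables, and all 43 were found. Their RNA was measured in poly(A) libraries from human cell lines, with 3 libraries for each line. Ewing sarcoma was represented by 7 lines: TC71, SKES1, RDES, MHHES1, EW24, EW3 and A673. Osteosarcoma was represented by 6: U2OS, SAOS2, MG63, KHOS, HOS-MNNG and G292, where KHOS and HOS-MNNG are both derivatives of the line HOS. Ewing sarcomas arise in bone and soft tissue and carry a chimeric transcription factor that joins EWSR1 to the DNA-binding part of an ETS protein, most often FLI1, whereas osteosarcomas are tumours that form bone and lack it. The remaining 6 libraries were from A673 cells with sh908, a doxycycline-inducible short hairpin RNA that targets the potassium channel gene KCNN1. Of these, 3 were grown in the absence of doxycycline (uninduced) and 3 in its presence (induced). The sources used here do not give the dose, the time or the number of clones of the sh908 cells, and no cells with a non-targeting hairpin were analysed here.

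Ligands of this family are secreted dimers that bring together type I and type II receptor kinases at the cell surface. TGF-beta, activin and nodal receptors phosphorylate SMAD2 and SMAD3, BMP receptors phosphorylate SMAD1, SMAD5 and SMAD9, and both groups enter the nucleus with SMAD4, while SMAD6 and SMAD7 are inhibitory SMADs that receptor signalling itself induces. Secreted antagonists such as noggin, gremlin, chordin and the follistatins bind ligands before they reach a receptor. In bone, BMPs drive osteoblast differentiation, and TGF-beta is stored in the matrix in latent form.

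The libraries held 15974173 to 51413254 estimated counts each, 23132161 to 51413254 in the Ewing sarcoma lines, 15974173 to 44911542 in the osteosarcoma lines and 16619617 to 24818664 in the sh908 groups. Levels are given in TPM, a transcript abundance scaled for transcript length and library depth, so that genes can be compared with each other. A line's value is the mean of its 3 libraries. Of 8 Ewing sarcoma markers, 7 were higher in the Ewing sarcoma lines at a false discovery rate (FDR) under 0.05, and the summed level of the 8 was 1164 to 2553 TPM there against 145 to 970 TPM in the osteosarcoma lines. The osteosarcoma lines were less even: the 12 osteoblast and mesenchymal markers summed to 179 to 5156 TPM against 76.0 to 451 TPM, but IBSP, a bone matrix protein gene, did not exceed 0.367 TPM in any line, and SP7, an osteoblast transcription factor, had a median of 0.0124 TPM over the osteosarcoma lines with 22.1 TPM in SAOS2. Lists of 5 blood, 3 endothelial and 4 epithelial cell markers summed to at most 2.57, 1.41 and 2.32 TPM in a Ewing sarcoma line. In an osteosarcoma line they reached 10.01, 6.83 and 28.4 TPM, and HBB, the beta-globin gene, was at 0 in every parental line. Of these markers, CD14 and PECAM1 were lower in Ewing sarcoma. The part of these markers in the results below was not tested.

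Several libraries stood apart within their group. Replicate 3 of TC71 was the lowest of the 3 TC71 libraries for 27 of the 43 genes, and replicate 3 of U2OS was the lowest of the 3 U2OS libraries for 33 of 43. Replicate 3 of the sh908 cells was the highest of 3 for 26 of the 43 genes without doxycycline and for 27 with it, and each of these libraries had the lowest mean correlation with other libraries among the 3 of its group. By the same measures replicate 1 of MG63 (highest for 26 of 43) and replicate 1 of HOS-MNNG (lowest for 25 of 43) also differed from the other libraries of their lines. Calls are also given without replicate 3 of TC71 and U2OS and without single sh908 libraries. Line means that did not overlap are also given without replicate 3 of TC71 and U2OS and without replicate 1 of MG63 and HOS-MNNG. Calls without these last libraries alone were not counted.

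Across the 13 parental lines, 15 of the 43 genes were present at 1 TPM or more in every line, 26 in some lines and 2, BMP3 and GDF5, in none. The 15 comprised the SMADs other than SMAD9, 5 receptors (BMPR1A, BMPR2, ACVR1, ACVR1B and ACVR2A), the ligands TGFB1 and GDF11, and the antagonist FSTL3. SMAD2, a signal transducer of TGF-beta and activin, was the most abundant SMAD in all 13 lines, from 71.0 TPM in G292 to 229 TPM in U2OS. The most abundant receptor differed by tumour type: it was TGFBR2 in all 6 osteosarcoma lines, whereas it was ACVR1B in 5 Ewing sarcoma lines, BMPR1A in A673 and BMPR2 in MHHES1. The most abundant ligand was GDF6 in A673, MHHES1, RDES and SKES1, TGFB1 in EW3, EW24, TC71, G292, HOS-MNNG, KHOS and MG63, and BMP4 in SAOS2 and U2OS. The summed antagonist level was 6.07 TPM (TC71) to 49.5 TPM (MHHES1) in the Ewing sarcoma lines and 48.9 TPM (HOS-MNNG) to 411 TPM (SAOS2) in the osteosarcoma lines. SMAD sums lay closer together, at 247 to 334 TPM and 225 to 355 TPM.

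**Figure D1:**
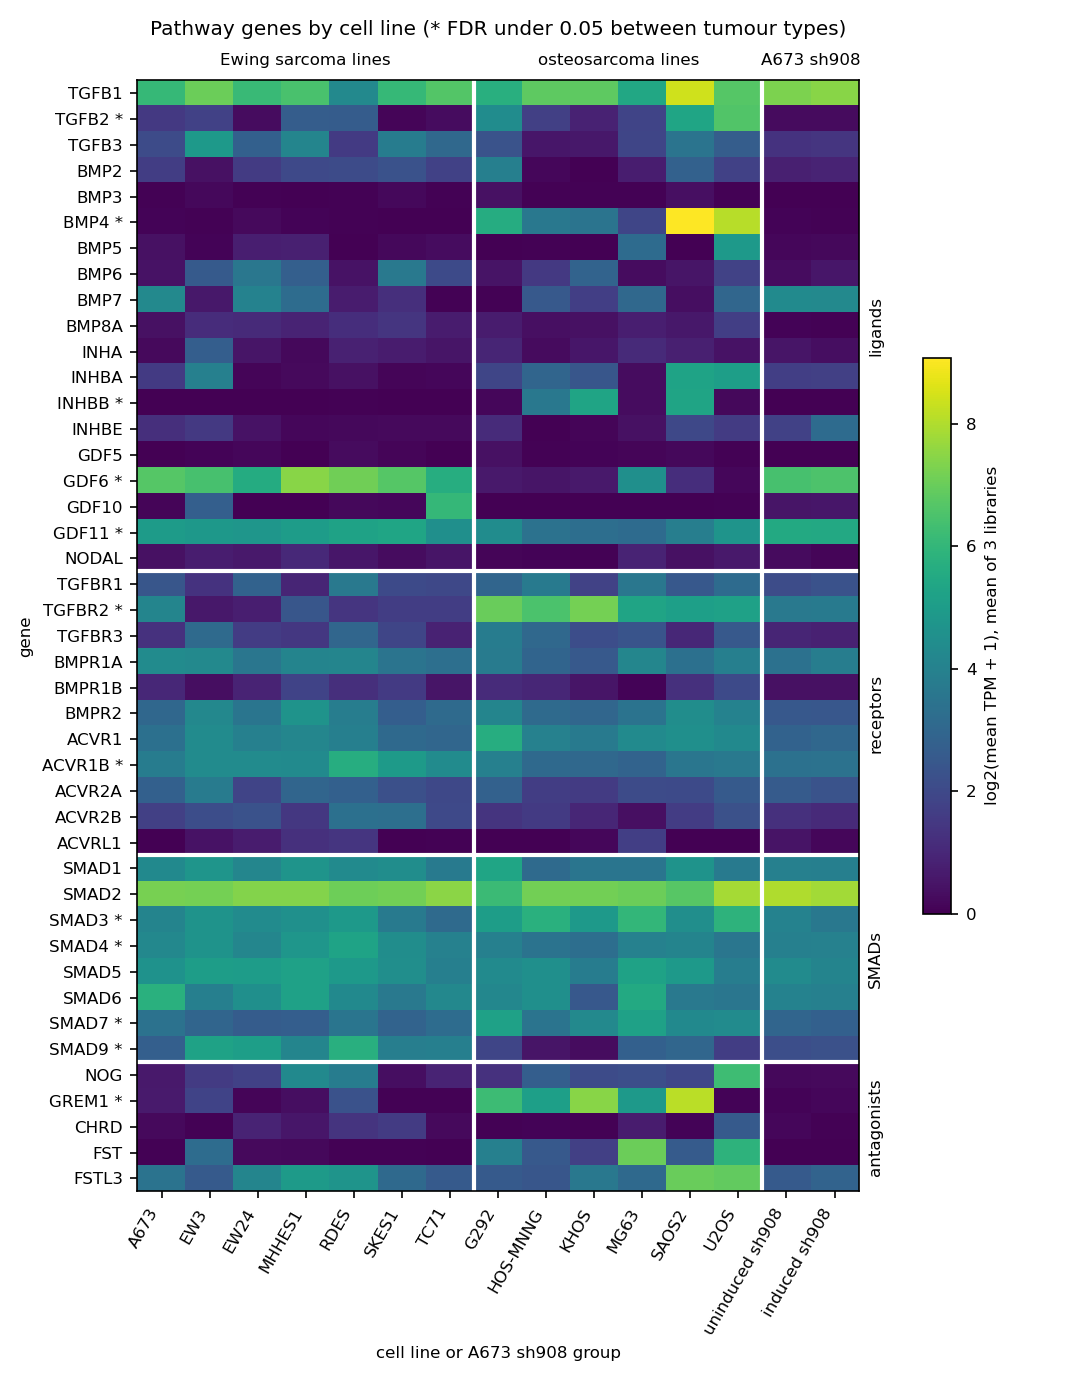
Mean level of each of the 43 pathway genes (rows, grouped by role) in the 13 parental lines and the 2 sh908 groups (columns), as log2(mean TPM + 1) over 3 libraries, with an asterisk on genes with an FDR under 0.05 between tumour types. The BMP4, TGFBR2 and GREM1 rows are bright in osteosarcoma columns, with U2OS dark for GREM1, and the GDF6 row is bright in all 7 Ewing sarcoma columns and in MG63.

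The 2 tumour types were compared over lines, 7 against 6, after the counts of a line's libraries had been summed, with edgeR's quasi-likelihood test and Benjamini-Hochberg adjustment over all 21998 genes tested. Of the 43 pathway genes, 41 passed the filter on low counts, and GDF5 and GDF10 did not. At an FDR under 0.05, 12 of the 41 (29.3%) differed, against 14.4% of all genes tested. The Ewing sarcoma lines were higher in 5 (GDF6, GDF11, ACVR1B, SMAD4 and SMAD9), where 5.97% of all genes were higher, and lower in 7 (TGFB2, BMP4, INHBB, TGFBR2, SMAD3, SMAD7 and GREM1), where 8.4% of all genes were lower. The 12 were spread over all 4 roles: 5 of 17 tested ligands, 2 of 11 receptors, 4 of 8 SMADs and 1 of 5 antagonists. The median log2 fold change of the 41 genes, Ewing sarcoma over osteosarcoma, was -0.15, beside -0.06 for all genes tested (0.05 as a ratio of mean TPM, with the sign of all 12 called genes the same on both scales). Line means did not overlap between the tumour types for 4 of the 41 (9.76%), namely BMP4, INHBB, GDF6 and TGFBR2, against 5.58% of all genes. Without replicate 3 of TC71 and U2OS they did not overlap for 5 of the 41 (12.2%), the same 4 and SMAD4, against 5.61% of all genes. Without replicate 1 of MG63 and HOS-MNNG they did not overlap for 5 of the 41, the same 4 and SMAD7, against 5.57% of all genes. BMP4 and INHBB passed the filter with no Ewing sarcoma line at its count level, so they were tested only because the osteosarcoma lines expressed them. Without these 2 genes, 10 of 39 (25.6%) were called and 2 of 39 (5.13%) had line means that did not overlap, the latter share near that of all genes. The shares of all genes still include genes that passed the filter through 1 tumour type only, so the sets compared are not trimmed alike.

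The same 12 genes were called without replicate 3 of TC71 and U2OS, a setting chosen after seeing the data as was the one without replicate 1 of MG63 and HOS-MNNG, and also without replicate 1 of every line. The same 12 were called with the HOS derivatives KHOS and HOS-MNNG summed as 1 line, where 2783 of 22496 genes were called. DESeq2 called all 12 and also ACVR1, ACVR2B, BMP5 and FST. It also called more of all genes tested, 24.4% against 14.4% in edgeR. A 2-sided exact permutation test of log2(TPM + 1) over all 1716 ways to choose 7 of the 13 lines, adjusted over all genes, called 11: it kept 10 of the 12, lost TGFB2 and SMAD3, and added FST. Over all genes that test called 1437 higher and 1134 lower, whereas edgeR called 1313 higher and 1847 lower.

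**Figure D2:**
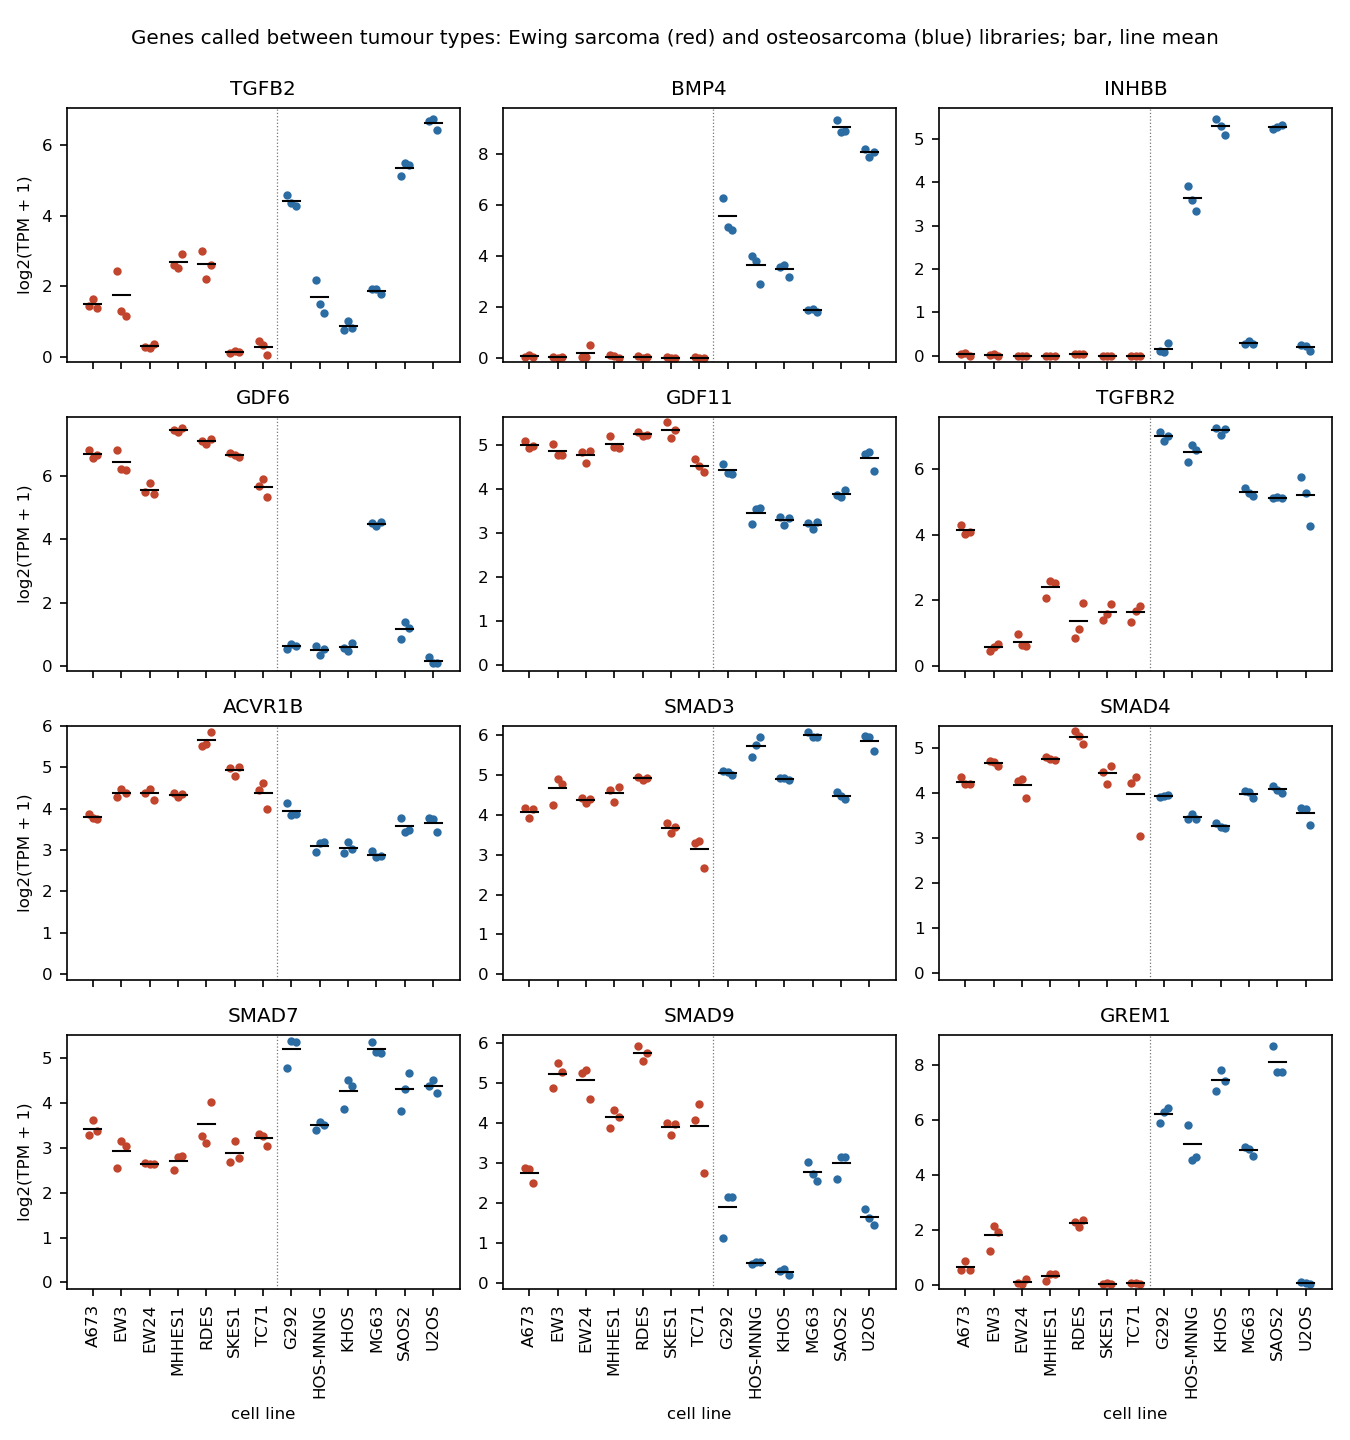
Level of each of the 12 genes called between tumour types in every library (points, 3 per line, log2(TPM + 1)), with Ewing sarcoma lines in red, osteosarcoma lines in blue and a bar at the line mean. Red and blue line means are fully separate for BMP4, INHBB, GDF6 and TGFBR2, and the other 8 panels show at least 1 line of a tumour type inside the range of the other.

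For 4 of the called genes, 3 lower and 1 higher in Ewing sarcoma, the 250 bases before the annotated transcription start are shown, because ETS factors, the family of the DNA-binding part of the Ewing sarcoma fusion, recognise the letters GGAA and the fusion binds runs of it. BMP4 and TGFBR2 have several windows in the table, and for them the window that overlaps no annotated GENCODE exon was taken. The 2 BMP4 windows not shown, with 2 and 5 matches, overlap exons. So does the TGFBR2 window not shown, with 4 matches and 58.4% G and C. Of the other called genes, SMAD3 (1 and 0 matches) and SMAD7 (4 and 5 matches) also have windows outside exons, which are not shown. The windows are from the RefSeq promoter table for GRCh38.p14, 5′ to 3′ on the strand of the gene, and capitals mark GGAA or, from the other strand, TTCC. They are BMP4 at chr14:53955051-53955300 on the minus strand, INHBB at chr2:120345886-120346135, TGFBR2 at chr3:30606106-30606355 and GDF11 at chr12:55742872-55743121, the last 3 on the plus strand.
BMP4: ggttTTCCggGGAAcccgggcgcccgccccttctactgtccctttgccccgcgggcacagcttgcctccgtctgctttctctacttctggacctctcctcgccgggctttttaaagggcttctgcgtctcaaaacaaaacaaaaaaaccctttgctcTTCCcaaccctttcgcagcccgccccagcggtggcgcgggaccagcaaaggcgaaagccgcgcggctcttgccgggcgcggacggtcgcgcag
INHBB: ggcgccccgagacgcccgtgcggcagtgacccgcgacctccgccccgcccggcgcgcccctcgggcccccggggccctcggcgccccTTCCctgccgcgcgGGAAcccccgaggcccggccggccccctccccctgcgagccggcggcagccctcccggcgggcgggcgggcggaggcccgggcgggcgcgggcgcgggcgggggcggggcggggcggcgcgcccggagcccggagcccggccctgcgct
TGFBR2: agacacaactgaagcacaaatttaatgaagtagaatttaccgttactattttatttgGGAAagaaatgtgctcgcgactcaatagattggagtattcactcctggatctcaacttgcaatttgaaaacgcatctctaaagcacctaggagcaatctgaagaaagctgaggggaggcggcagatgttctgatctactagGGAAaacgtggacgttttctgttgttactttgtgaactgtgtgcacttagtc
GDF11: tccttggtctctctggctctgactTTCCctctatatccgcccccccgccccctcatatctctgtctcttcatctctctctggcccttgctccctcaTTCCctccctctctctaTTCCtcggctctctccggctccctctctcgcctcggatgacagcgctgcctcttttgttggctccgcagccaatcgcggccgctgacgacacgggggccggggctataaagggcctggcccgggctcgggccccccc
The printed windows of BMP4 and GDF11 held 3 matches each, and those of INHBB and TGFBR2 held 2 each, where the median of all windows was 3. The INHBB window was 89.6% G and C and the printed TGFBR2 window 40.8%, around a median of 58% over all windows.

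In all, 36 of the 43 genes had 64 such windows in the table, which holds 35116 windows of 27305 genes. Motifs were searched on both strands of the 250 bases before the start. GGAA occurred in 56 of the 64 windows (87.5%) and in 92.7% of all windows, and GGAAGGAA in 2 (3.12%, in 1 window each of BMP4 and TGFBR1, neither of them printed above) and in 3.06% of all windows. The SMAD-binding letters CAGACA occurred in 11 of the 64 (17.2%) against 13.6% of all windows, in windows of TGFB2, BMP4, ACVR1B, SMAD3 and GREM1, which were called between tumour types (for BMP4 again not the printed window), and of INHA, TGFBR1, BMPR1B, BMPR2 and ACVR1, which were not. GGCGCC, a GC-rich SMAD-binding sequence, occurred in 16 (25%) against 16.4%, and the palindrome GTCTAGAC in 1 (1.56%), a window of SMAD6, against 0.182%. These shares describe letters in the windows only.

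Among the TGF-beta ligands, TGFB1 was the most abundant and did not pass the test between tumour types. Its line means were 18.1 TPM (RDES) to 131 TPM (EW3), with a median of 69.8 TPM, in Ewing sarcoma, and 42.6 TPM (MG63) to 337 TPM (SAOS2), with a median of 107 TPM, in osteosarcoma. TGFB2, the isoform that needs the co-receptor betaglycan for tight receptor binding, ranged from 0.0999 TPM (SKES1) to 5.42 TPM (MHHES1) with a median of 1.81 TPM in Ewing sarcoma. In the osteosarcoma lines it was at 0.825 TPM in KHOS, 2.25 TPM in HOS-MNNG, 2.67 TPM in MG63, 20.2 TPM in G292, 39.8 TPM in SAOS2 and 97.0 TPM in U2OS. The first 3 of these lines lay inside the Ewing sarcoma range and the last 3 above all of it. TGFB2 (chr1:218345336-218444619) was lower in Ewing sarcoma with a log2 fold change of -3.66 (SE 1.13, edgeR FDR 0.0466), but this call was lost when any 1 Ewing sarcoma line, G292, SAOS2, U2OS or replicate 2 of every line was left out (without U2OS, -2.72 and FDR 0.110), when no filter was applied, and under the exact permutation test (FDR 0.189). TGFB3 did not pass (log2 fold change 1.43, SE 0.72, FDR 0.205): it held 1.88 TPM (RDES) to 27.99 TPM (EW3) in Ewing sarcoma and 0.456 TPM (HOS-MNNG) to 10.2 TPM (SAOS2) in osteosarcoma.

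BMP4, a BMP that induces bone and mesoderm, showed the largest difference of all the pathway genes tested. No Ewing sarcoma library exceeded 0.424 TPM (replicate 3 of EW24), and the Ewing sarcoma line means ran from 0.0113 TPM (TC71) to 0.166 TPM (EW24) with a median of 0.0293 TPM. SAOS2 libraries held 661, 465 and 484 TPM, U2OS libraries 297, 239 and 275 TPM, and G292 libraries 76.5, 34.2 and 32.2 TPM. HOS-MNNG held 15.1, 13.1 and 6.50 TPM, KHOS 10.96, 11.6 and 8.26 TPM, and MG63 2.76, 2.87 and 2.58 TPM. Every osteosarcoma library was thus above every Ewing sarcoma library, while the osteosarcoma lines themselves spanned from MG63 to SAOS2 without overlap of library ranges except between HOS-MNNG and KHOS. The counts behind this were 23 in the 21 Ewing sarcoma libraries and 65083 in the 18 osteosarcoma libraries. This gave BMP4 (chr14:53949736-53956891) a log2 fold change of -11.69 (SE 1.42, edgeR FDR 0.000297), whose size rests on the few Ewing sarcoma counts.

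The other 6 BMP genes did not pass the test. BMP5, a close relative of BMP6 and BMP7, was at 28.7 TPM in U2OS and 8.08 TPM in MG63 and did not exceed 0.752 TPM in any other line. Its log2 fold change was -4.15 (SE 1.69, edgeR FDR 0.118), and -2.42 without U2OS. BMP6 ranged from 0.343 to 11.8 TPM in Ewing sarcoma and from 0.228 to 6.39 TPM in osteosarcoma, with a log2 fold change of 1.20 (SE 0.97, FDR 0.446) that became 2.31 without KHOS. BMP7 was highest in A673 (18.2 TPM) and EW24 (15.1 TPM) and lowest in TC71 (0.0316 TPM) and G292 (0.0409 TPM), so that both tumour types held lines near 0. BMP2, the other classical osteogenic BMP, reached 14.02 TPM in G292 and 6.04 TPM in SAOS2, was at 0 in all 3 KHOS libraries and lay between 0.332 TPM (EW3) and 3.88 TPM (SKES1) in Ewing sarcoma. BMP3, which opposes osteogenic BMPs, stayed at or under 0.316 TPM (G292) in every line, with a log2 fold change of -1.04 (SE 0.72, FDR 0.368) that was -0.47 without G292. BMP8A stayed at or under 2.20 TPM (U2OS), and its counts are uncertain because BMP8B is a near-identical copy.

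Of the 4 activin and inhibin subunit genes, INHBB passed the test, and INHA, INHBA and INHBE did not. INHBB, the activin beta B subunit, was at 0 in all libraries of EW24, MHHES1, SKES1 and TC71 and at most at a line mean of 0.0303 TPM (RDES) in the other Ewing sarcoma lines. It was at 42.7, 38.5 and 33.1 TPM in KHOS, 36.6, 38.02 and 39.2 TPM in SAOS2 and 14.2, 11.004 and 9.19 TPM in HOS-MNNG. The other 3 osteosarcoma lines were low, at 0.120 TPM in G292, 0.148 TPM in U2OS and 0.224 TPM in MG63. The line means did not overlap, but only 3 of the 6 osteosarcoma lines were far above the Ewing sarcoma lines. INHBB counts summed to 11 in Ewing sarcoma and 14150 in osteosarcoma, with a log2 fold change of -10.65 (SE 1.87, edgeR FDR 0.00287). The gene (chr2:120346136-120351803) did not pass the filter, and so was not tested, when replicate 3 of every line was left out.

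INHBA, the activin beta A subunit, was at 37.3 TPM in SAOS2, 32.8 TPM in U2OS and 0.242 TPM in MG63, the lowest osteosarcoma line. In Ewing sarcoma its median was 0.160 TPM, with 14.6 TPM (16.6, 13.8 and 13.3 TPM) in EW3. The log2 fold change of -2.58 (SE 1.34, edgeR FDR 0.220) did not pass, and without EW3 it was -4.80 with an FDR of 0.0268. EW3 also held the highest level of INHA, the inhibin alpha subunit, at 5.52 TPM, where no other line exceeded 1.13 TPM (MG63). INHBE, an activin beta subunit best known from liver, was at or under 2.91 TPM (SAOS2) in the parental lines. Its EW3 mean of 1.82 TPM came from replicate 1 alone, at 4.92 TPM beside 0.328 and 0.206 TPM. NODAL, a patterning ligand of the early embryo, ranged from 0.0503 TPM (KHOS) to 1.04 TPM (MHHES1).

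Of the growth and differentiation factors, GDF6 and GDF11 were higher in Ewing sarcoma. GDF6, a BMP-type ligand of joint and skeletal development, had Ewing sarcoma line means of 46.6 TPM (EW24) to 173 TPM (MHHES1) with a median of 100.4 TPM. In 5 osteosarcoma lines it was between 0.126 TPM (U2OS) and 1.27 TPM (SAOS2), and in MG63 it was at 22.01, 20.6 and 22.4 TPM. The lowest Ewing sarcoma library, replicate 3 of TC71 at 38.998 TPM, was still above the highest MG63 library, so the groups did not overlap. GDF6 was higher in Ewing sarcoma with a log2 fold change of 4.42 (SE 1.15, edgeR FDR 0.0216), which was 7.27 without MG63. GDF11, a relative of myostatin that acts through activin receptors, had line means of 21.9 TPM (TC71) to 39.5 TPM (SKES1), median 30.8 TPM, in Ewing sarcoma and 8.06 TPM (MG63) to 24.7 TPM (U2OS), median 11.7 TPM, in osteosarcoma. U2OS lay inside the Ewing sarcoma range, above TC71 alone, and without its replicate 3 (27.07 TPM) also above EW24 (26.3 TPM). The log2 fold change of GDF11 (chr12:55743122-55757264) was 1.04 (SE 0.24, edgeR FDR 0.0129).

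GDF10, a ligand related to BMP3, was high in TC71 and EW3 and near 0 elsewhere. TC71 libraries held 77.6, 52.1 and 63.1 TPM and EW3 libraries 6.49, 5.75 and 4.66 TPM, while the remaining Ewing sarcoma lines did not exceed 0.157 TPM (RDES) and the osteosarcoma lines did not exceed 0.0268 TPM (U2OS). It was not tested because too few lines reached the filter's count level. GDF10 reached that level in 5 Ewing sarcoma lines and 0 osteosarcoma lines, so that where it passed the filter it did so through the group in which it is high. It was called higher when no filter was applied and when G292, MG63, SAOS2 or U2OS was left out, and was not called without HOS-MNNG or KHOS. GDF5, a joint ligand, did not exceed 0.329 TPM (G292) and was not tested.

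Of the receptors, TGFBR2, the only type II receptor for TGF-beta, had the widest difference. Its Ewing sarcoma line means were 16.5 TPM in A673, 4.35 TPM in MHHES1, 2.12 TPM in SKES1, 2.11 TPM in TC71, 1.62 TPM in RDES, 0.685 TPM in EW24 and 0.491 TPM in EW3. Its osteosarcoma line means were 143 TPM in KHOS, 126 TPM in G292, 90.2 TPM in HOS-MNNG, 38.02 TPM in MG63, 35.9 TPM in U2OS and 33.7 TPM in SAOS2. A673 was the Ewing sarcoma line nearest to the osteosarcoma lines, and its highest library (18.5 TPM) exceeded 1 osteosarcoma library, replicate 3 of U2OS at 18.3 TPM beside 52.3 and 37.001 TPM in the other U2OS libraries, so that the groups were separate over line means and met over single libraries. TGFBR2 (chr3:30606356-30694142) was lower in Ewing sarcoma with a log2 fold change of -4.36 (SE 0.89, edgeR FDR 0.00641), between -5.55 without A673 and -3.99 without KHOS. TGFBR1, the type I partner, ranged from 0.934 TPM (MHHES1) to 12.05 TPM (HOS-MNNG), and TGFBR3, which encodes betaglycan, from 0.827 TPM (TC71) to 12.9 TPM (G292). Neither passed the test.

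ACVR1B, the activin type I receptor, was the receptor that was higher in Ewing sarcoma. Line means were 12.9 TPM (A673) to 49.4 TPM (RDES), with a median of 19.7 TPM, against 6.39 TPM (MG63) to 14.5 TPM (G292), with a median of 9.25 TPM. Only A673 and G292 lay inside the range of the other tumour type. The log2 fold change of ACVR1B (chr12:51951699-51997078) was 1.19 (SE 0.28, edgeR FDR 0.0126). ACVR2B, an activin type II receptor, had 1.74 to 9.11 TPM in Ewing sarcoma and 0.300 to 3.81 TPM in osteosarcoma, with a log2 fold change of 1.32 (SE 0.51, FDR 0.102). Its paralogue ACVR2A ranged from 2.01 TPM (KHOS) to 12.8 TPM (EW3).

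BMPR1A, BMPR1B, BMPR2, ACVR1 and ACVRL1, which encode BMP receptors, did not pass the test. BMPR1A, a type I receptor, lay between 4.78 TPM (KHOS) and 19.8 TPM (A673), and BMPR2, the BMP type II receptor, between 5.59 TPM (SKES1) and 24.4 TPM (MHHES1). BMPR1B was lower, from 0.0551 TPM (MG63) to 3.10 TPM (U2OS). ACVR1, the type I receptor whose activating mutations cause ectopic bone formation, had 6.97 to 19.6 TPM in Ewing sarcoma and 12.4 to 49.2 TPM in osteosarcoma, with G292 the highest. ACVR1 missed the threshold (edgeR FDR 0.0553), and it was called by DESeq2, with the line as a random effect, without U2OS and without replicate 2 of every line. ACVRL1, a type I receptor of endothelial cells, was at 2.21 TPM in MG63, 1.65 TPM in RDES and 1.39 TPM in MHHES1, and at 0 in all libraries of SKES1, G292, SAOS2 and U2OS.

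Among the SMADs the tumour types differed in 4 of 8. SMAD9, a BMP-responsive SMAD, had the largest difference: its line means were 5.73 TPM in A673 and 13.8 TPM (SKES1) to 52.3 TPM (RDES) in the other Ewing sarcoma lines, against 0.222 TPM (KHOS), 0.429 TPM (HOS-MNNG), 2.15 TPM (U2OS), 2.71 TPM (G292), 5.88 TPM (MG63) and 6.98 TPM (SAOS2). Over line means the groups overlapped through A673 alone, which lay just under MG63 and SAOS2, and replicate 3 of TC71 (5.69 TPM, beside 15.8 and 21.03 TPM) was the other low Ewing sarcoma library. SMAD9 (chr13:36844831-36920854) was higher in Ewing sarcoma with a log2 fold change of 2.89 (SE 0.69, edgeR FDR 0.0142). The other BMP-responsive SMADs did not pass: SMAD1 ranged from 7.83 TPM (HOS-MNNG) to 39.6 TPM (G292) and SMAD5 from 12.9 TPM (KHOS) to 36.7 TPM (MG63).

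SMAD4, the shared partner, was higher in Ewing sarcoma, with line means of 14.8 TPM (TC71) to 36.97 TPM (RDES), median 20.7 TPM, against 8.62 TPM (KHOS) to 15.9 TPM (SAOS2), median 12.5 TPM. Its log2 fold change was 0.72 (SE 0.18, edgeR FDR 0.0175). TC71 was the line that overlapped with osteosarcoma, and its replicate 3 held 7.22 TPM of SMAD4 beside 17.7 and 19.5 TPM in the others. Without that library the TC71 mean was 18.6 TPM, and the line means of SMAD4 did not overlap. SMAD3, which carries TGF-beta and activin signals, was lower in Ewing sarcoma, with 7.82 TPM (TC71) to 29.3 TPM (RDES), median 19.9 TPM, against 21.5 TPM (SAOS2) to 63.3 TPM (MG63), median 42.4 TPM. Its log2 fold change was -1.37 (SE 0.29, edgeR FDR 0.00823), and the exact permutation FDR was 0.0606. SAOS2 was the osteosarcoma line that reached furthest into the Ewing sarcoma range.

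Of the inhibitory SMADs, SMAD7 was lower in Ewing sarcoma, with 5.28 TPM (EW24) to 10.5 TPM (RDES), median 6.68 TPM, against 10.3 TPM (HOS-MNNG) to 35.9 TPM (MG63), median 19.3 TPM. The ranges met only at RDES and HOS-MNNG, where replicate 3 of RDES was at 15.2 TPM beside 8.62 and 7.67 TPM. The log2 fold change of SMAD7 (chr18:48919853-48950965) was -1.71 (SE 0.33, edgeR FDR 0.00486). SMAD6 did not pass, and its extremes fell in both tumour types, at 52.9 TPM in A673, 44.7 TPM in MG63 and 4.71 TPM in KHOS.

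The antagonists had fold changes below 0 for all 5, and GREM1 passed the test. GREM1, which encodes the BMP antagonist gremlin (chr15:32718004-32745106), was at 0.0376 TPM (SKES1) to 3.82 TPM (RDES), median 0.247 TPM, in Ewing sarcoma. It was at 406, 211 and 211 TPM in SAOS2, 131, 224 and 171 TPM in KHOS, 57.8, 77.4 and 84.9 TPM in G292, 55.7, 22.5 and 24.3 TPM in HOS-MNNG and 31.04, 30.1 and 25.02 TPM in MG63. U2OS, at 0.0736, 0.0601 and 0.0174 TPM, was the exception and lay among the lowest Ewing sarcoma lines. GREM1 was lower in Ewing sarcoma at -6.67 on the log2 scale (SE 1.34, edgeR FDR 0.00609).

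U2OS, the osteosarcoma line lowest in GREM1, was the line with the most NOG, which encodes the BMP antagonist noggin. NOG was at 72.6, 76.9 and 77.0 TPM in U2OS and between 1.43 and 5.59 TPM in the other osteosarcoma lines. MHHES1 (18.9 TPM) and RDES (12.96 TPM) were the highest Ewing sarcoma lines and SKES1 (0.271 TPM) the lowest. NOG had a log2 fold change of -1.57 (SE 1.10, edgeR FDR 0.376), which turned to 0.37 without U2OS. CHRD, the chordin gene, was also highest in U2OS at 4.98 TPM, followed by SKES1 at 2.01 TPM.

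FST, the gene of the activin antagonist follistatin, was at 130.3 TPM in MG63, 57.9 TPM in U2OS, 14.3 TPM in G292 and 2.32 to 5.12 TPM in the other osteosarcoma lines. EW3 was at 8.29 TPM, the other Ewing sarcoma lines did not exceed 0.180 TPM (EW24), and TC71 was at 0 in all libraries. The log2 fold change of -5.03 (SE 1.77) missed the threshold in edgeR (FDR 0.0735) and passed in the exact permutation test (FDR 0.0338). Without EW3, the same line that held INHBA, it was -9.36 with an edgeR FDR of 0.00227, and without MG63 it was -3.74 and not called. FSTL3, a follistatin-like activin antagonist, was at 127 TPM in SAOS2 and 118 TPM in U2OS and between 4.32 TPM (HOS-MNNG) and 29.7 TPM (MHHES1) in all other lines, with a log2 fold change of -1.70 (SE 0.79, FDR 0.172).

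**Figure D3:**
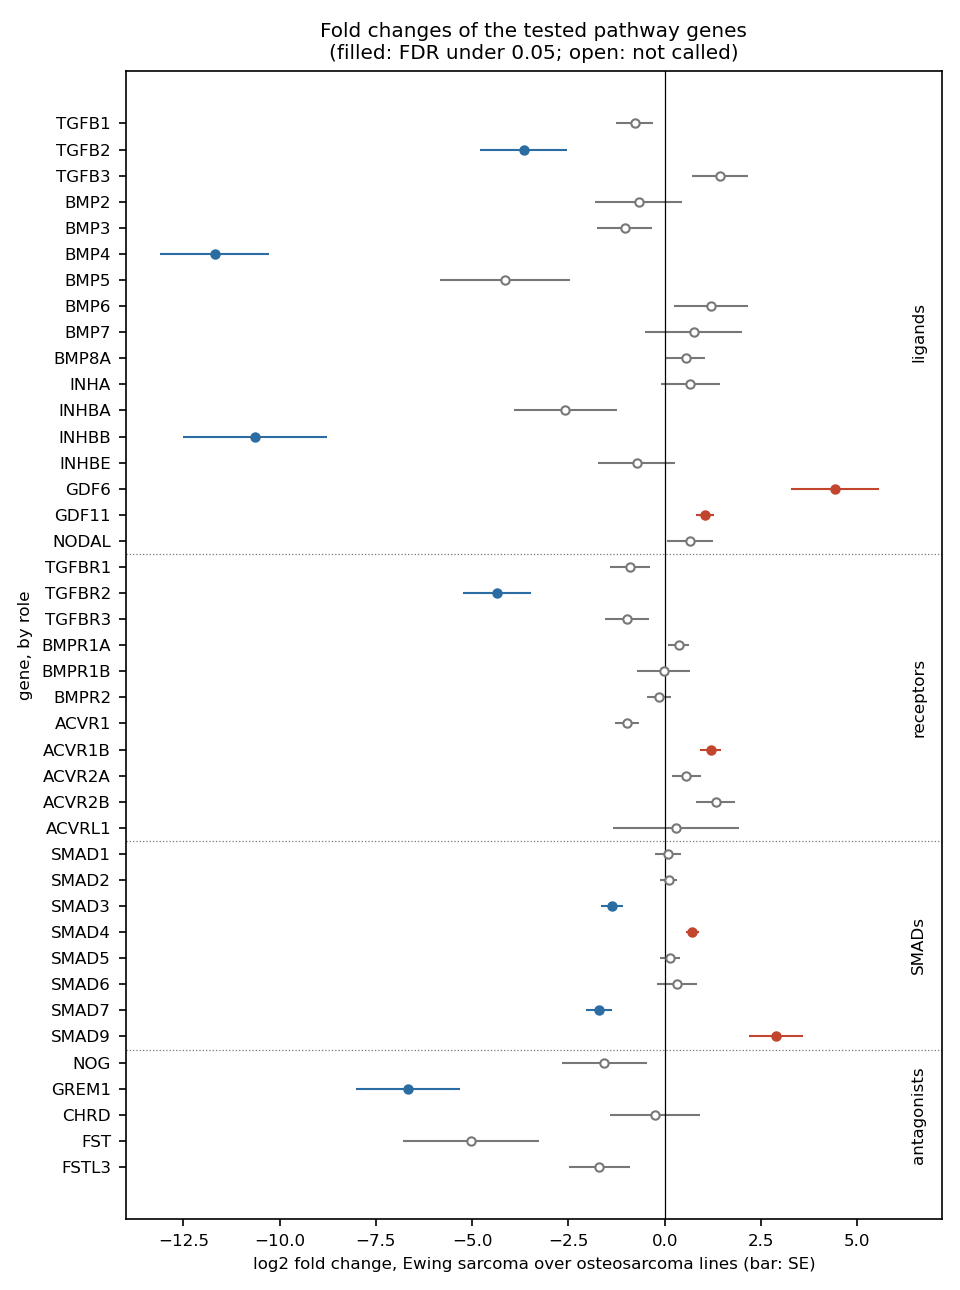
Log2 fold change, Ewing sarcoma over osteosarcoma lines, with its standard error for the 41 tested pathway genes, grouped by role, filled where the edgeR FDR was under 0.05. BMP4 (-11.69) and INHBB (-10.65) lie furthest to the left and GDF6 (4.42) furthest to the right, while most receptors and SMADs lie within 2 log2 units of 0.

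The 20 tested genes that neither passed nor reached an absolute log2 fold change of 1 ran from -0.98 (TGFBR3 and ACVR1) to 0.75 (BMP7). Because these are bulk libraries, fewer cells expressing a gene and less RNA per cell cannot be told apart. The lines also differ in more than their tumour type, so a difference between the 2 sets of lines cannot be told apart from other differences between them.

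Further pathway genes were read from the same fit in 5 lists. Of 15 TGF-beta target genes, all tested, 10 (66.7%) were lower in Ewing sarcoma and 0 were higher, beside 8.4% lower and 5.97% higher of all genes tested, 14 of the 15 fold changes were below 0, and the median log2 fold change was -3.10. TGFBI, a TGF-beta-induced matrix protein gene, was at 0.0231 TPM (TC71) to 20.96 TPM (A673) in Ewing sarcoma and 25.3 TPM (U2OS) to 552 TPM (HOS-MNNG) in osteosarcoma, with a log2 fold change of -6.00 (SE 1.45, edgeR FDR 0.0156). A673 was its highest Ewing sarcoma line, as it was for TGFBR2. LTBP2, which encodes a latent TGF-beta binding protein, was at -6.67 (SE 1.46, FDR 0.00939). CDKN2B, a cell cycle inhibitor gene, was at -6.29 (SE 1.98, FDR 0.0493), tested in 11 of 17 leave-outs and lost in 8 of those, among them the one without replicate 3 of TC71 and U2OS (FDR 0.0504). It was also lost under the exact permutation test (FDR 0.215). Several of these targets, such as COL1A1 and LTBP2, are also mesenchymal or matrix genes, and 4 of 10 tested osteoblast and mesenchymal markers were lower in Ewing sarcoma too; their part in this count was not tested.

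Of 10 BMP target genes, 1 was higher and 1 was lower (20% called, beside 14.4% of all genes tested), with a median of -0.05. DESeq2 called 5 of the 10 (50%), beside 24.4% of all genes. ID2, an inhibitor of DNA-binding gene, was at 120.3 TPM (TC71) to 527 TPM (EW3) in Ewing sarcoma and 9.38 TPM (KHOS) to 97.0 TPM (G292) in osteosarcoma, without overlap (log2 fold change 2.73, SE 0.52, edgeR FDR 0.00439). Its relative ID1 went the other way, at 26.1 TPM (EW24) to 119.9 TPM (TC71) against 109.9 TPM (HOS-MNNG) to 449 TPM (G292), with a log2 fold change of -1.92 (SE 0.45, FDR 0.0133).

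Of 35 extracellular regulators, 29 were tested, 2 were higher and 9 lower (37.9% called, beside 14.4% of all genes tested, of which 5.97% were higher and 8.4% lower), with a median of -1.23. CER1, a secreted antagonist of nodal and BMPs, was at 1.58 TPM (SKES1) to 29.3 TPM (EW24) in Ewing sarcoma and at most 0.0401 TPM (U2OS) in osteosarcoma (log2 fold change 10.63, SE 1.19, edgeR FDR 0.000165), a difference opposite in sign to that of GREM1. Its counts were 5601 in Ewing sarcoma and 2 in osteosarcoma, so CER1 was tested only because the Ewing sarcoma lines expressed it, and the size of its fold change rests on those 2 counts. SOSTDC1, another BMP antagonist gene, was higher by 4.98 (SE 0.90, FDR 0.00352), with 1495 counts in Ewing sarcoma and 36 in osteosarcoma, where 2 of 6 lines reached the filter's count level, so its fold change also rests on few counts. Among the lower ones, LTBP2 is given above, FBN1 (fibrillin) was at -4.17 (SE 1.11, FDR 0.0248), NRROS at -4.48 (SE 1.17, FDR 0.0226) and LTBP1 at -3.50 (SE 1.07, FDR 0.0439), the last lost in 9 of 17 leave-outs. The exact permutation test ended the calls of FBN1 (FDR 0.0675), NRROS (0.120) and LTBP1 (0.0578). Of 17 other ligands and receptors, 9 were tested, with AMH, the anti-Mullerian hormone gene, higher by 3.55 (SE 0.90, FDR 0.0191) and ACVR1C, a nodal and activin type I receptor gene, lower at -4.39 (SE 1.18, FDR 0.0257). ACVR1C was under 0.1 TPM in every Ewing sarcoma line, so the size of its fold change rests on few Ewing sarcoma counts. It reached the filter's count level in 1 Ewing sarcoma line and 5 osteosarcoma lines, so it passed mainly through the group in which it is higher. The ACVR1C call was lost in 4 of 13 leave-outs, those of EW24, MHHES1, SKES1 and SAOS2 (-2.67 without SAOS2), and under the exact permutation test (FDR 0.109). Of 16 intracellular regulators, TGIF2, a SMAD corepressor, was higher by 1.98 (SE 0.24, FDR 0.000313), and the ubiquitin ligase genes NEDD4L (-1.43, SE 0.32, FDR 0.0114) and SMURF2 (-1.32, SE 0.20, FDR 0.00134) were lower, where the exact permutation test ended the call of NEDD4L (FDR 0.0552). The medians were -1.06 and -0.15 for these 2 lists, and 22.2% and 18.8% of their tested genes were called, beside 14.4% of all genes tested.

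**Figure D4:**
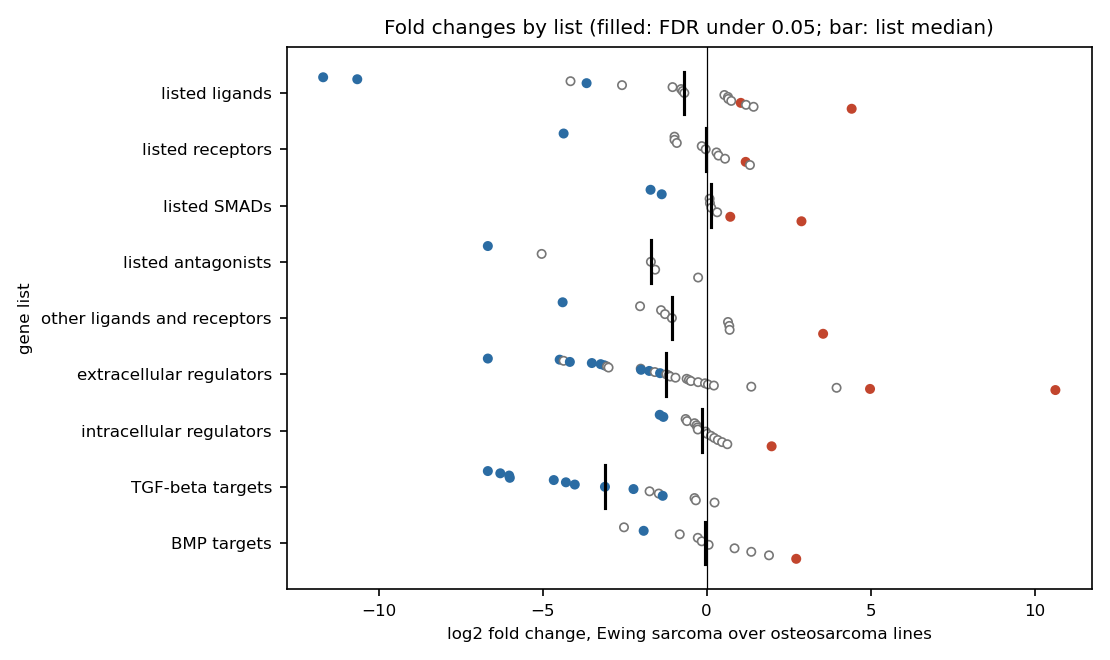
Log2 fold change, Ewing sarcoma over osteosarcoma lines, of every tested gene (points, filled where the edgeR FDR was under 0.05) in the 4 role groups and the 5 further lists, with a bar at each list's median. The TGF-beta targets lie mostly to the left, around a median of -3.10, and the BMP targets lie on both sides of 0, around a median of -0.05.

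The sh908 cells were examined for the effect of the hairpin. KCNN1, its target, was at 37.8, 35.3 and 17.99 TPM in the uninduced libraries and 10.2, 13.7 and 7.75 TPM in the induced ones, each below all of the former. Its log2 fold change of -1.53 (SE 0.52) did not pass in edgeR (FDR 0.9999), and with the replicate number as a block it was -1.46 (SE 0.13, FDR 0.00132). Of the pathway genes, 30 passed the filter in this comparison and 0 of 30 were called, where 0% of 14250 genes were called. At an unadjusted p under 0.05 there were 0 of 30 pathway genes and 94 genes in all, and DESeq2 called 0 pathway genes and 2 genes in all. With the replicate block, 0 of 30 were called where 0.512% of all genes were (73 genes), and 5 of 30 (16.7%) had an unadjusted p under 0.05, close to the 13.2% of all genes. Leaving out any 1 library, or any 1 pair with the block kept, also called 0 of the pathway genes. Fold changes of the 30 genes ran from -0.40 (SMAD3) to 1.63 (INHBE) on the log2 scale without the block. INHBE is named after its values were seen: its uninduced libraries held 0.944, 1.44 and 4.78 TPM and its induced libraries 0.671, 1.99 and 21.1 TPM, so that replicate 3 alone was high in each group. Among the further lists the block gave 1 call, FURIN, a protease gene that processes TGF-beta precursors (0.57, SE 0.09, FDR 0.0362).

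The uninduced sh908 cells were also compared with parental A673, 3 libraries against 3. This comparison shares the uninduced libraries with the one above, and vector, culture and library set cannot be told apart in it. Nothing in the labels says that libraries of a group came from separate cultures, so its p-values measure the spread between these libraries, which may be technical. Of 33 pathway genes tested, 7 (21.2%) were called, where 15.1% of 15776 genes were, 4 higher and 3 lower in the uninduced cells. With the replicate number as a term 1 of 33 was called, SMAD6, where 2.02% of all genes were. The TMM scaling of the counts and TPM differ here: over all genes tested the median log2 fold change was 0.01 in edgeR and -0.41 as a ratio of mean TPM, so the edgeR fold changes lie above the ratios of mean TPM, by a median of 0.42 over all genes and by 0.33 (SMAD6) to 0.79 (GREM1) for the 7 called genes. As ratios of mean TPM the 7 called genes kept their sign, for example GDF11 at 0.53, SMAD2 at 0.76, TGFB1 at 1.21 and SMAD6 at -1.78.

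Of the higher genes, TGFB1 was at 68.5, 69.9 and 63.3 TPM in parental A673 and 181, 177 and 109 TPM in uninduced sh908 cells, and the fold change was 1.75 on the log2 scale (SE 0.35, edgeR FDR 0.0249). SMAD2 was at 139, 145 and 162 TPM against 206, 291.9 and 259 TPM (1.20, SE 0.24, FDR 0.0252), and GDF11 at 32.96, 29.2 and 30.2 TPM against 50.9, 46.5 and 35.7 TPM (0.98, SE 0.22, FDR 0.0337). GDF10 was low throughout, at 0.118, 0.119 and 0.0273 TPM against 0.361, 0.513 and 0.441 TPM (2.70, SE 0.59, FDR 0.0299). For these 4 genes all 3 uninduced libraries were above all 3 parental ones.

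Of the lower genes, SMAD6 fell from 47.0, 59.5 and 52.0 TPM to 13.2, 9.73 and 23.2 TPM, that is by a log2 change of -1.45 (SE 0.18, edgeR FDR 0.00968). TGFB2 was at 1.69, 2.12 and 1.62 TPM against 0.319, 0.0791 and 0.194 TPM (-2.73, SE 0.52, FDR 0.0220), and GREM1 at 0.4597, 0.828 and 0.474 TPM against 0.141, 0.0190 and 0.0394 TPM (-2.35, SE 0.58, FDR 0.0416). All 3 uninduced libraries were below all 3 parental ones for each. In the induced libraries SMAD6 held 11.3, 9.55 and 22.5 TPM and TGFB1 157, 230.2 and 132 TPM, with replicate 2 above all uninduced libraries for TGFB1.

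The calls depended on single libraries, while the fold changes of all 7 genes kept their sign in every leave-out. Between leave-outs SMAD6 ran from -1.55 to -1.31, TGFB1 from 1.57 to 2.08, GDF11 from 0.87 to 1.19 and SMAD2 from 0.95 to 1.36. The ranges were wider for TGFB2 (-3.43 to -2.39), GREM1 (-2.96 to -1.93) and GDF10 (2.31 to 2.99). Without any 1 of the parental libraries, 0 of the 7 were called, and without uninduced replicate 1, 2 or 3 there were 3, 1 and 18 calls, the last including all 7. These were 8.82%, 2.94% and 54.5% of the pathway genes tested, where 8.26%, 1.6% and 62.3% of all genes were called. The genes added without replicate 3 included SMAD5, named after its values were seen, at 25.4, 21.1 and 23.6 TPM in parental cells and 10.9, 10.2 and 38.4 TPM in uninduced cells. Replicate 3 thus lay above the parental libraries for SMAD5 where replicates 1 and 2 lay below them.

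**Figure D5:**
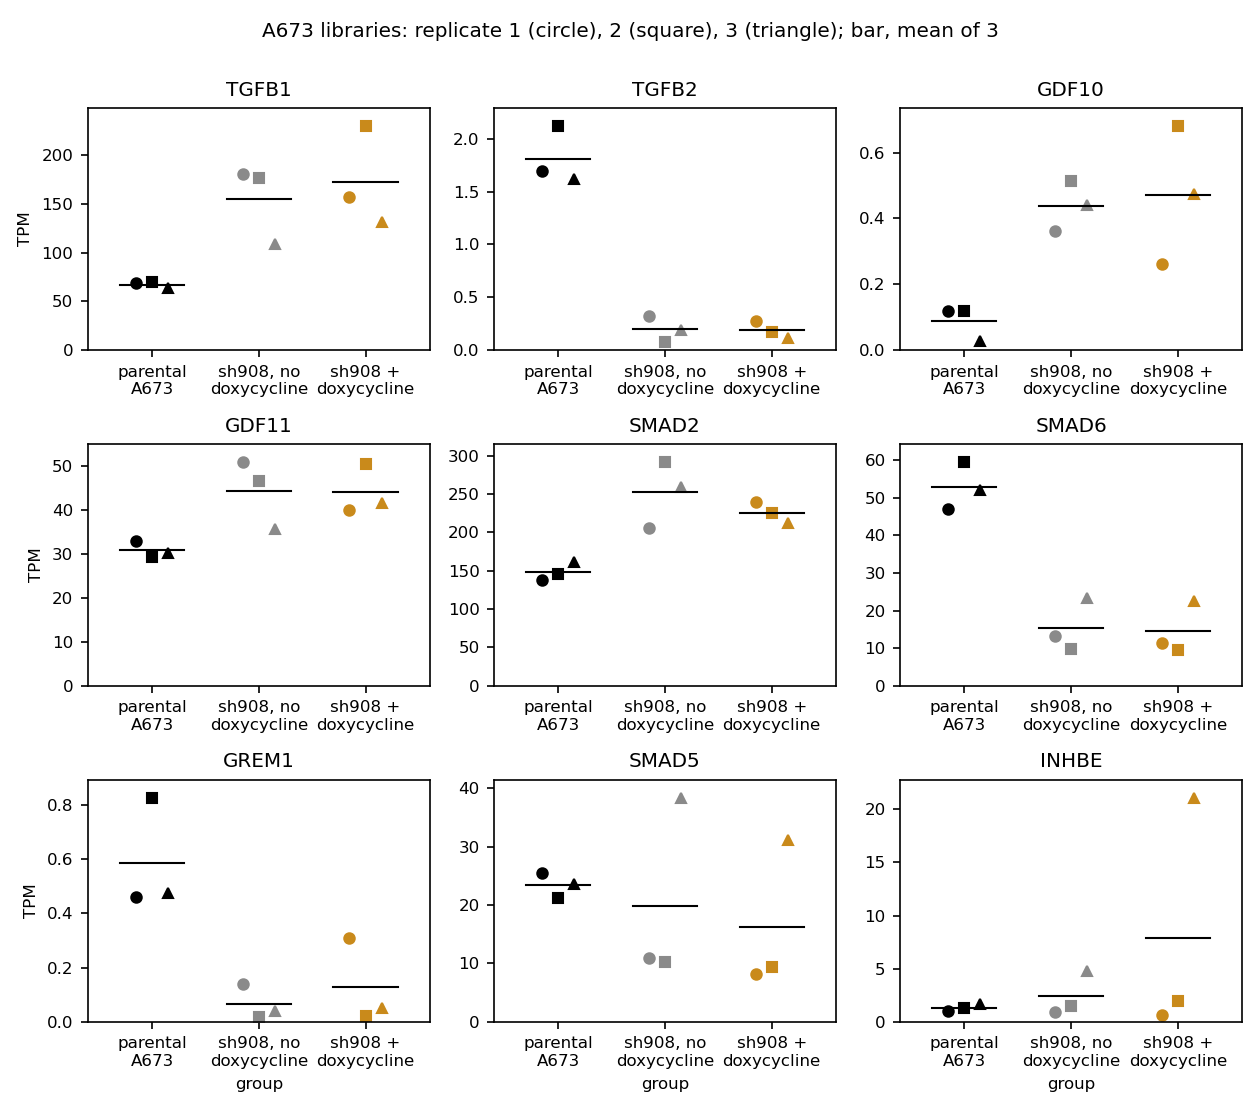
TPM in each library of parental A673, uninduced sh908 and induced sh908 cells for the 7 genes called between uninduced and parental cells and for SMAD5 and INHBE, with the replicate shown by the symbol and a bar at the mean of 3. SMAD6, TGFB2 and GREM1 are lower in all sh908 libraries than in all parental ones, and the triangles of replicate 3 stand apart for SMAD5 and INHBE.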

How the data were processed

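Per the submitters' processing notes the tools were fastp 0.19.5 and kallisto 0.46.2 and the builds hg38 and GRCh38.p14, with no options named. For each of 177816 RefSeq transcripts the authors deposited an estimated count (an expected count that need not be whole) and a TPM value, per the file headers, in 1 table per library. Poly(A) libraries were built with the TruSeq Stranded mRNA kit from RNA of the NucleoSpin RNA Plus kit, per the labels. Transcripts were joined to genes by accession, ignoring the version, through the RefSeq gene table of GRCh38.p14: 169960 (95.6%) matched, and the rest held 0.926% to 1.6% of a library's counts and were left out. Counts and TPM were summed per gene.

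Counts were rounded, filtered with filterByExpr (minimum count 10), scaled with TMM and fitted with edgeR 4.0.16 (glmQLFit, robust), and FDR values were adjusted over all genes tested. SE is the absolute log2 fold change over the square root of F. Lines were the samples between tumour types, and libraries in the sh908 comparisons. Exact permutation tests, 2-sided, used log2(mean TPM + 1) of each line, with TPM averaged over its libraries first. With 13 lines the smallest p they can give is 0.000583. Alternatives used DESeq2 1.42.0 and limma 3.58.1 under R 4.3.3, other filters, factors and pseudocounts, and leave-outs. Tables and figures used Python 3.11.15, numpy 2.4.6, pandas 2.3.3 and matplotlib 3.10.9. On simulated counts with 200 genes changed 4-fold, the tumour type fit recovered 33.5% (5 false calls, 21998 genes), the doxycycline fit 70.5% (4 false calls, 14250 genes) and the uninduced against parental fit 84.5% (14 false calls, 15776 genes). The changed genes were drawn from those with higher mean counts, so these rates do not cover genes with low counts. Counts were drawn independently for each library, without the shift across genes that set some sh908 libraries apart. How far the rates hold for the sh908 comparisons was not tested.

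Whether replicate numbers pair libraries was checked by correlating deviations from group means. Same-numbered uninduced and induced libraries correlated at 0.682, 0.582 and 0.881, all over 0.1, and were taken as paired; the source of the pairing is these data, not the labels, and replicate 3 correlated with the other numbers at -0.778 to -0.658. Replicates 1 and 2 correlated across numbers at 0.517 and 0.608, so the numbers 1 and 2 are not told apart and replicate 3 stands apart in both groups. The pathway genes and the further lists were chosen with earlier results of these data known. Fold changes are printed for called genes, for uncalled ones of at least 1 on the log2 scale between tumour types, and for up to 4 called genes per further list and direction. The values of 1 gene that this rule names are not reported here.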

Additional observations from a re-analysis of the deposited data

Results flagged for a closer look

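In each gene the line means of a tumour type were examined for a line far from the others, by the gap to its nearest neighbour over the range of the group. Of 86 groups examined, 12 had such a line, where chance gives about 5%. Among the Ewing sarcoma lines, EW3 stood apart 4 times: high for INHA (5.52 TPM, next line 0.763 TPM), INHBA (14.6 TPM, next 1.91 TPM) and FST (8.29 TPM, next 0.180 TPM), and low for BMP2 (0.332 TPM, next 1.98 TPM). RDES was low for TGFB1 (18.1 TPM, next 66.0 TPM), and EW24 was high for BMP4 (0.166 TPM, next 0.0557 TPM), a level near 0 that came from replicate 3. Among the osteosarcoma lines, U2OS was high for NOG (75.5 TPM, next 5.59 TPM), CHRD (4.98 TPM, next 0.619 TPM) and BMP8A (2.20 TPM, next 0.713 TPM). MG63 was high for GDF6 (21.6 TPM, next 1.27 TPM) and ACVRL1 (2.21 TPM, next 0.128 TPM), and G292 for GDF5 (0.329 TPM, next 0.134 TPM).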

How the results depend on the processing

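Between tumour types DESeq2 called 5358 genes where edgeR called 3160, and the exact permutation test called 2571. DESeq2 called 5 of 10 BMP targets and 5 of 16 intracellular regulators where edgeR called 2 and 3. Of 942 values of single genes under the alternatives, 847 kept their direction and side of the threshold, 84 lost a call, 10 gained one and 1 turned, NOG, whose leave-outs ran from -2.35 to 0.37. A fit of 39 libraries with the line as a random effect and the replicate block called 4490 genes, 2238 of them higher, and 17 pathway genes, including all 12.

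With doxycycline the replicate block called 73 genes and DESeq2 2, against 0 without them, and leave-outs called 0 to 74, the most without pair 3 in the blocked fit, which called 5 without pair 1 and 7 without pair 2. The block changed no call of a pathway gene. Between uninduced and parental cells same-numbered libraries correlated at 0.0455, 0.0866 and 0.25, so the numbers were not taken as pairs. The replicate block called 319 genes and DESeq2 4169, against 2388, and leave-outs called 2 to 10199. The highest count was without uninduced replicate 3, 266 and 1378 were called without uninduced replicates 2 and 1, and at most 8 without any 1 parental library. The block called 1 pathway gene against 7, and leave-outs called 0 to 18. The causes were not tested. A few counts limit the fold changes of BMP4 and INHBB, and estimated counts may not fully separate near-identical copies, which was not tested.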
